A study of Mus musculus with 52 samples.

Results

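RNA polymerase II (Pol II) was measured by chromatin immunoprecipitation with sequencing at promoter windows of genes that the study's authors marked as delayed primary response genes (class dPRG) in mouse neurons. The deposited Pol II table gives a density for 27815 windows of 600 bp at transcription start sites, and 116 of them carry the dPRG mark. Windows of 22 well-known activity genes (Nr4a, Egr, Fos, Jun, Dusp, Bdnf and similar names) were set aside by name. The members are the remaining 94 windows, 1 for each of 94 gene symbols. How the authors chose the marked sets is not stated in the files, so a higher density during activity at these windows is not independent evidence of their class. Of the 94 members, 62 had a mean density over all libraries in the upper 50 percent of windows (at least 0.2818) and were tested, and 32 lay below that limit.

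The cells were primary culture neurons of CD1 mice, unstimulated or with neuronal activity for up to 360 min; the stimulus, the age and the brain region are not given in the labels. One arm was kept in vehicle (DMSO) and the other in U0126, which blocks MEK1 and MEK2 and so the activation of ERK kinases. Pol II was measured in unstimulated neurons of 1 h and of 6 h and at 1, 10, 30, 60, 180 and 360 min in both arms, in 31 libraries and 16 groups. Each group had 2 libraries except U0126 at 180 min, with 1. The labels do not say whether the libraries of a group came from separate cultures, so p-values reflect the spread among these samples alone, and that spread may be technical. The tables hold no read counts, so sequencing depth is unknown and values have no counting interval.

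Primary response genes are induced by signalling to factors already present in the cell, without new protein synthesis. In neurons, calcium entry and ERK signalling act on CREB, SRF and MEF2 at their promoters. Rapid members of the class, such as Fos and Egr1, are transcribed within minutes and mostly encode transcription factors. Delayed members follow more slowly and encode a wider range of proteins, from transporters and enzymes to receptors and neuropeptides. Pol II at a promoter can be paused or about to elongate, and a density over the start site does not separate these states.

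The summed density of the 31 libraries was between 15570 and 18510, and replicates correlated across tested windows with r between 0.766 and 0.863 (windows are not independent replicates). Windows listed at 0 made up 0.723% to 11.5% of a library, most in the 30 min libraries with replicate number 1: 11.5% in vehicle and 9.52% in U0126. Vehicle 30 min replicate 1 has the largest share, and the vehicle 30 min calls, medians, onsets and peaks are given with and without it. U0126 30 min replicate 1 has nearly as large a share, and the 30 min median and onsets of the U0126 arm are given only with it. All 8 neuron markers passed the density limit, while 0 of 5 microglia and 0 of 5 endothelial and fibroblast markers did, as well as 2 of 5 astrocyte and 5 of 6 oligodendrocyte lineage markers. The summed density of the oligodendrocyte lineage list was between 3.045 and 3.974 in the unstimulated 1 h vehicle libraries and between 2.679 and 4.271 at 10 to 60 min in vehicle. In the same libraries the neuron list, which holds the member Nefl, summed to between 9.726 and 9.791 and to between 11.03 and 15.49. Its densest gene, Tubb3, was called higher in the vehicle average (0.64, adjusted p 0.035), whereas the list's median was 0.02 and Gap43 and Stmn2 were at -0.66 and -0.38. The excitatory list summed to between 3.908 and 4.102 and between 1.711 and 4.512 (median -0.33), the GABAergic list to between 3.249 and 5.039 and between 3.037 and 7.472 (median 0.10), the astrocyte list to between 1.445 and 1.555 and between 1.108 and 1.45, and the microglia list to between 0.9434 and 1.007 and between 0.2919 and 1.107. Their part in the members' values was not tested. In bulk cultures, a change of Pol II in every cell and a change in a share of the cells cannot be told apart.

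Promoter sequences were available from RefSeq (build GRCm38.p6, 250 bases before to 50 after the start) for 72 of the 94 members, as 86 promoters. The windows of the deposited table are in mm9, so the 2 sets were matched by gene symbol only. The 5 promoters shown were picked because they belong to the members with the largest Pol II rise (Slc7a1 and Wdr90) or hold the CRE, the binding motif of CREB (Errfi1, Zdbf2 and Ell2). Other holders of the CRE, among them Mlf1 and Sstr2, which did not rise on average, are not shown. Capitals mark matches to the CRE (TGACGTCA), the AP-1 motif (TGANTCA), the EGR motif (GCGNGGGCG), the CArG box bound by SRF and the TATA box (TATAAA), searched on both strands. Slc7a1 and Zdbf2 each have 2 RefSeq promoters, spaced exactly as the 2 windows of the same gene in the deposited table (7089 and 72911 bp), and the one shown is in the position of the marked window. Errfi1 has 2 RefSeq promoters and 1 window, and which of them the window covers was not determined.
Slc7a1 (chr5:148399855-148400154, minus strand): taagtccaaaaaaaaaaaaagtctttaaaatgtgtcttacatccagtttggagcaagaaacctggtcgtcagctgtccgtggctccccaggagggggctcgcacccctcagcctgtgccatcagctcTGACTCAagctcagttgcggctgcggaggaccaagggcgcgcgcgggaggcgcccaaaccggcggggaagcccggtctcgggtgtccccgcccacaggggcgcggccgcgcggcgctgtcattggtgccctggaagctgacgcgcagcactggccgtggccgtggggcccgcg
Wdr90 (chr17:25861466-25861765, minus strand): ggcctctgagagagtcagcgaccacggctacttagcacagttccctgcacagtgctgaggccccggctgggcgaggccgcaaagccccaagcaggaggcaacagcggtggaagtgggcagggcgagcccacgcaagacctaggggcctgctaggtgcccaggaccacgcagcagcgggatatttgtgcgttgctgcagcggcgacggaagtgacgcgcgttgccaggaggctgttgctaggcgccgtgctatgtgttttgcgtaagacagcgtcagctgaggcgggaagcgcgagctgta
Errfi1 (chr4:150854820-150855119, plus strand): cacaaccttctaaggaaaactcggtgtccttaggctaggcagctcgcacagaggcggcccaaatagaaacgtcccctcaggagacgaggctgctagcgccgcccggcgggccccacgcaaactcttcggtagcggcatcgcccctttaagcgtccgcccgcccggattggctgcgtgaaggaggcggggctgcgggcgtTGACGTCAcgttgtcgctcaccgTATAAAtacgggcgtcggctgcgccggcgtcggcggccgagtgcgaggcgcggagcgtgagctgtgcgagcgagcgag
Zdbf2 (chr1:63273019-63273318, plus strand): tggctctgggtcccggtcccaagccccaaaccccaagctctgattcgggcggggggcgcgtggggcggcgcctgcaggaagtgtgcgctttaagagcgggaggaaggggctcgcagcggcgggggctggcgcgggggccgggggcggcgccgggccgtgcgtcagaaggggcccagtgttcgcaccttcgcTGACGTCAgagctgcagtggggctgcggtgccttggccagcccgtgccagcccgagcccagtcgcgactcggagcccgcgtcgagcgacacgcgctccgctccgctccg
Ell2 (chr13:75707234-75707533, plus strand): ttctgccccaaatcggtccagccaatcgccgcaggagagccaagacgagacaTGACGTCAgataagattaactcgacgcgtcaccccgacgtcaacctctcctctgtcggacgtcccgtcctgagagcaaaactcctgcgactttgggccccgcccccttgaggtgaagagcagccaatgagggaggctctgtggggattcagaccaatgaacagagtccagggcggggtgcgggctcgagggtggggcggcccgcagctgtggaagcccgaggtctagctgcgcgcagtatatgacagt

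The CRE was found in 8 of the 86 member promoters (9.3%) and in 588 of all 32851 RefSeq promoters (1.79%). Its holders are Areg, Cartpt, Ell2, Errfi1, Mlf1, Pard6a, Sstr2 and Zdbf2, and the CRE begins at position -51 from the start in Errfi1, -59 in Zdbf2 and -198 in Ell2. The vehicle average of the tested holders was 0.897 for Zdbf2, 0.845 for Errfi1, 0.733 for Pard6a and 0.555 for Ell2. It was -0.071 for Mlf1 and -0.413 for Sstr2, and Areg and Cartpt were below the density limit. The AP-1 motif was in 8.14% of member promoters and 7.81% of all, the EGR motif in 4.65% and 5.55%, the CArG box in 3.49% and 1.63%, and the TATA box in 19.8% and 13.6%. The shorter letters TGACG, which lie within the CRE and were searched after the full motif had been counted, were in 46.5% of member promoters and 20.8% of all. The median GC content was 62% in member promoters and 52.7% in all, and its part in these shares was not tested. A match describes letters in the window and does not show that a factor was bound there.

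The first question was how far, and how early, Pol II rose at these promoters. Values were compared as log2 of density plus 0.1456, with limma across all 13908 tested windows and Benjamini-Hochberg adjustment over them. Averaged over 10, 30 and 60 min in vehicle, 4 of 62 members were called higher at an adjusted p under 0.05 (Slc7a1, Wdr90, Eprs and Errfi1), beside 1.15% of all tested windows, and 0 were lower. At an unadjusted p under 0.05, 28 of the 62 were higher, beside 9.91% of all windows. The median log2 fold change of the 62 tested members was 0.48, against 0.02 for all tested windows, and 55 of the 62 were positive. This median was between 0.38 and 0.55 with 1 library left out at a time. The members' median density was lowest among the 31 libraries, at 0.7273, in vehicle unstimulated 1 h replicate 1, which is part of this comparison. The 4 calls rest on the unstimulated 1 h libraries: none was kept without vehicle replicate 1 of that group. More members passed without vehicle 30 min replicate 2, and fewer without vehicle 30 min replicate 1. The shares of all windows called in these fits are not given, so this is not a result about the members alone.

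**Figure D1:**
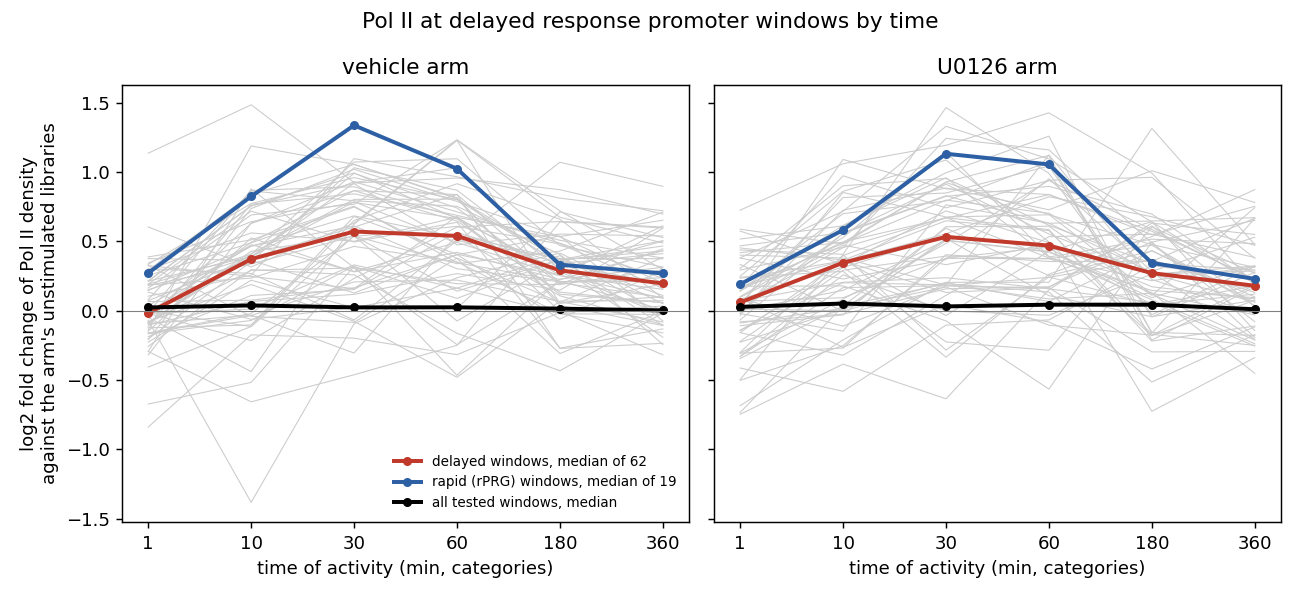
Log2 fold change of Pol II density (y) against time of activity in min (x, categories) in vehicle (left) and U0126 (right), each arm against its own unstimulated libraries. Grey lines are the 62 tested delayed windows and coloured lines are medians: the delayed median reaches 0.57 at 30 min in vehicle and 0.53 in U0126, below the rapid (rPRG) windows and above the median of all tested windows.

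At 1, 10, 30, 60, 180 and 360 min, the tested members' median in vehicle was -0.02, 0.37, 0.57, 0.54, 0.29 and 0.20, in that order. It was highest at 30 and 60 min, and the 30 min value was 0.38 without replicate 1 and 0.75 without replicate 2 of that group. At 1 min 0 members were called higher (0% of all windows), at 10 min 2 (0.223%), at 30 min 4 (1.34%) and at 60 min 1 (0.165%). At 180 and 360 min 0 members and 0% of all windows were called. The calls of single times rest on few libraries. At 30 min none was kept without vehicle 30 min replicate 1 or unstimulated 1 h replicate 1. Fewer members passed without unstimulated 1 h replicate 2, and more without vehicle 30 min replicate 2. All windows moved in the last case too. The share whose 30 min and unstimulated libraries did not overlap, with a log2 fold change of at least 0.5, went from 11.8% to 20.2%. At 10 min no call was kept without vehicle 10 min replicate 1 or unstimulated 1 h replicate 1, and at 60 min none without any 1 of the 4 libraries.

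Slc7a1, a cationic amino acid transporter that imports arginine and lysine (mm9 chromosome 5, 149211180 to 149211780), had the largest average rise. Its density was 0.379 and 0.799 in the unstimulated 1 h vehicle libraries, 1.44 and 1.36 at 1 min, 2.23 and 1.51 at 10 min, 1.33 and 1.08 at 30 min and 1.48 and 1.15 at 60 min. Every library of 1 to 60 min lay above both unstimulated ones. The log2 fold change was 1.49 at 10 min (SE 0.298, adjusted p 0.0215) and 1.15 on average (SE 0.243, adjusted p 0.0105). By 360 min the libraries, at 0.731 and 0.791, lay between the 6 h unstimulated values of 1.1 and 0.667. The unstimulated 1 h libraries in U0126 were higher, 0.942 and 0.875, than those in vehicle, and the average without vehicle replicate 1 of that group was 0.72. Another Slc7a1 window, 7089 bp away, had a mean density of 0.1551, below the limit.

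Wdr90, which encodes a protein of the centriole wall (chromosome 17, 25998160 to 25998760), was the member with the lowest adjusted p. Its density was 1.17 and 1.91 unstimulated, 1.27 and 1.43 at 1 min, 3.96 and 3.3 at 10 min, 3.28 and 3.3 at 30 min and 2.77 and 2.76 at 60 min in vehicle. The libraries of 10, 30 and 60 min lay above all those of 1 min and rest, and the highest density was at 10 min. The log2 fold change was 1.19 at 10 min (adjusted p 0.0191), 1.06 at 30 min (adjusted p 0.0155) and 1.02 on average (SE 0.187, adjusted p 0.00283).

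Eprs, the glutamyl-prolyl-tRNA synthetase that charges tRNA with glutamate and proline (chromosome 1, 187186673 to 187187273), went from 1.51 and 1.78 to 3.63 and 2.58 at 10 min, 4.51 and 2.83 at 30 min and 3.08 and 2.97 at 60 min. The groups did not overlap at these times, and by 180 min the values of 2.27 and 2 were close to the 6 h unstimulated values of 2.04 and 1.9. The rise was 1.06 at 30 min (SE 0.226, adjusted p 0.0141) and 0.90 on average (SE 0.185, adjusted p 0.00811). The mean density of Eprs at 1 h rest was 1.64 in vehicle, below 2.24 in U0126 and below 2.04 at 1 min in vehicle. In the U0126 arm its average rise was 0.435 (adjusted p 0.404). The difference of the rises between arms was -0.468 (interval -1 to 0.06), not called. Without vehicle 30 min replicate 1 the 30 min values of Eprs and Wdr90 were 0.73 and 1.05, neither called (adjusted p 0.564 and 0.273). Errfi1, a feedback inhibitor of the EGF receptor (chromosome 4, 150228899 to 150229499), had the highest density of any member. It was 3.55 and 3.74 at rest, 6.86 and 5.91 at 10 min, 9.36 and 5.62 at 30 min and 7.48 and 5.7 at 60 min. The rise was 0.96 at 30 min (SE 0.254, adjusted p 0.0437) and 0.84 on average (SE 0.207, adjusted p 0.0329). Without vehicle 30 min replicate 1 the Errfi1 rise at 30 min was 0.59 and not called, and quantile normalization, which gives all libraries the same distribution of values, gave 0.34 at 30 min and 0.41 on average, neither called. Leaving out 1 library at a time ended the average call of Errfi1 in 5 of 8 cases, with values between 0.72 and 0.97.

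**Figure D2:**
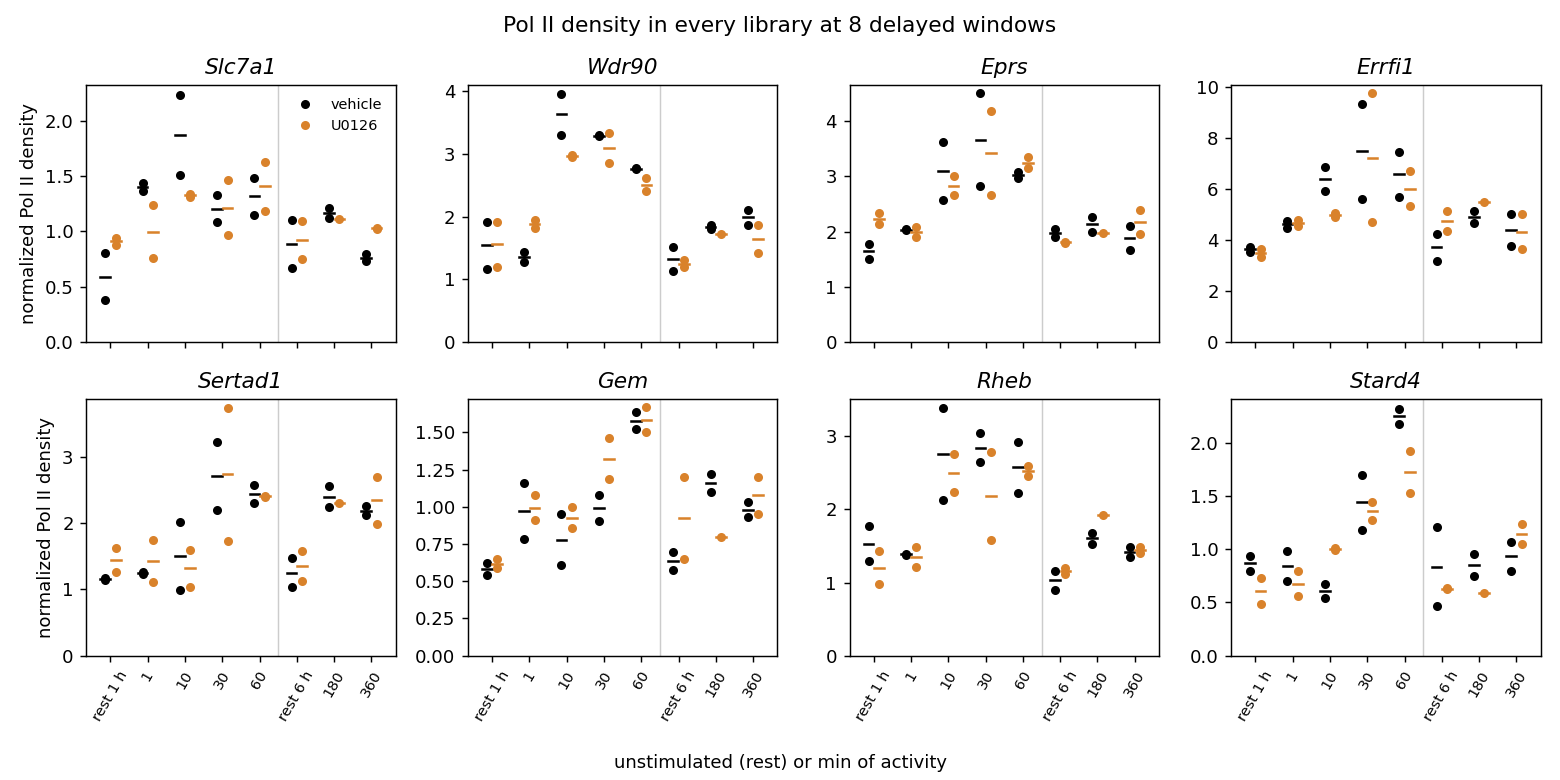
Normalized Pol II density (y, from 0) in each library (points) with the group mean (bars) at 8 delayed windows called in at least 1 comparison, by time (x), vehicle in black and U0126 in orange. Slc7a1 and Wdr90 are highest at 10 min in vehicle, Gem and Stard4 at 60 min, and the points of both arms lie close to each other at most times.

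The other 4 called members, Sertad1, Gem, Stard4 and Rheb, passed in 1 comparison each. Sertad1, a transcriptional co-regulator that binds CDK4, was at 1.14 and 1.18 at rest, 0.988 and 2.02 at 10 min, 3.22 and 2.2 at 30 min and 2.3 and 2.58 at 60 min, and it stayed at 2.24 and 2.56 at 180 min. Its rise at 30 min was 1.10 (SE 0.297, adjusted p 0.0498), and 0.83, not called, without vehicle 30 min replicate 1. Gem, a small GTPase of the RGK family that lowers calcium channel activity, was at 0.543 and 0.622 at rest, 0.61 and 0.95 at 10 min, 0.903 and 1.08 at 30 min and 1.64 and 1.52 at 60 min. Its rise of 1.23 at 60 min (SE 0.275, adjusted p 0.0492) was the only call of a member at that time, among 23 windows called higher in the whole table. Sertad1 and Gem lay near the threshold, and neither call was kept with quantile normalization or with 1 window per symbol.

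Stard4, a cholesterol transfer protein, was the member with a difference between times. Its density was 0.935 and 0.8 at rest, 0.669 and 0.543 at 10 min, 1.7 and 1.18 at 30 min and 2.18 and 2.32 at 60 min, and 0.744 and 0.955 at 180 min. Both 10 min libraries lay below both at rest, and the 60 min libraries were the highest. The difference of 60 minus 10 min was 1.67 (SE 0.305, adjusted p 0.0193), 1 of 2 windows called higher in the whole table (0.0144%). Leaving out any 1 of the 4 libraries involved put the adjusted p of Stard4 above the threshold, at 0.115 to 0.333, with values between 1.53 and 1.80. Without vehicle 10 min replicate 2 a different member, Sstr2, was called for this difference (2.43, adjusted p 0.0366), with the 1 remaining 10 min library listed at 0. In U0126, Stard4 was at 0.486 and 0.732 at rest, 0.991 and 1.01 at 10 min and 1.53 and 1.92 at 60 min. Rheb, the GTPase that activates the growth kinase complex mTORC1, was called in the U0126 arm and is described with it.

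The members were then ranked by onset, the first time in vehicle at which both libraries lay above both matched unstimulated libraries with a log2 fold change of at least 0.5. This is a description with no test, since 2 libraries a group cannot give an exact permutation p under 0.05. Onset was at 1 min for 2 members (Slc7a1 and Gem), at 10 min for 18, at 30 min for 15, at 60 min for 8, at 180 min for 2 (Baz1a and Atp10d) and at 360 min for 2 (Fam126b and Rnf128). The shares of all tested windows with onset at these 6 times were 4.23%, 7.92%, 6.1%, 2.57%, 3.46% and 1.37%. The members' 3.23% at 1 min and 3.23% at 180 min are no higher than those shares. The remaining 15 members (24.2%) had none, against 74.3% of all tested windows. Gem met the rule at 1 min (0.785 and 1.16 against 0.543 and 0.622) but not at 10 min. Of the 19 rapid (rPRG) windows, 14 (73.7%) had their onset at 10 min, against 29% of the members. The rapid windows were denser, with a median of 2.441 against 1.002 for the tested members. They also rose more, with medians of 0.82 at 10 min and 1.34 at 30 min, against 0.37 and 0.57. Because the rule sets a fixed fold change, this contrast does not separate a later rise from a smaller one.

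The 18 members with onset at 10 min were led by Wdr90, Eprs, Zdbf2, Fbxo33, Errfi1, Kitl, Gltscr2 and Slc6a17. The 15 with onset at 30 min included 4931440P22Rik, Sertad1, Gch1, Pard6a, Hsd17b12, Herpud1, Ell2 and Stard4, and the 8 with onset at 60 min Nefl, Acsl4, Rem2, Pou3f1, Stk40, Gpr22, Slc2a3 and Lipg. The largest log2 fold change fell at 10 min for 9 members, at 30 min for 24, at 60 min for 17, at 180 min for 7 and at 360 min for 5. Peaks thus lay at 30 or 60 min for 41 of 62 members (66.1%), for 14 of 19 rapid windows (73.7%) and for 32.7% of all windows. The single times differed: 60 min held the peak of 27.4% of members, 1 rapid window (5.26%) and 13.4% of all windows. At 180 and 360 min the shares were 11.3% and 8.06% of members, 0% of rapid windows at both, and 17.6% and 15.8% of all windows. Without vehicle 30 min replicate 1 the onset was at 30 min for 11 members, 13 members peaked at 30 min and 26 at 60 min, so whether 30 or 60 min holds more of the members' peaks rests on that library. Of the 19 rapid windows, 7 then peaked at 30 min and 4 at 60 min without that library. With it left out 26 members (41.9%) met the condition of non-overlap at 30 min, beside 12.3% of all windows. The same condition of non-overlapping libraries with a log2 fold change of at least 0.5 was met by 19 of 62 members at 10 min (9.76% of all windows), by 31 at 30 min (11.8%), by 31 at 60 min (9.45%), by 13 at 180 min (5.23%) and by 11 at 360 min (3.6%). Members with onset at 1 or 10 min had a higher median density (1.563) than those with onset at 30 or 60 min (0.8896), and the part of density in the order of onset was not tested.

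**Figure D3:**
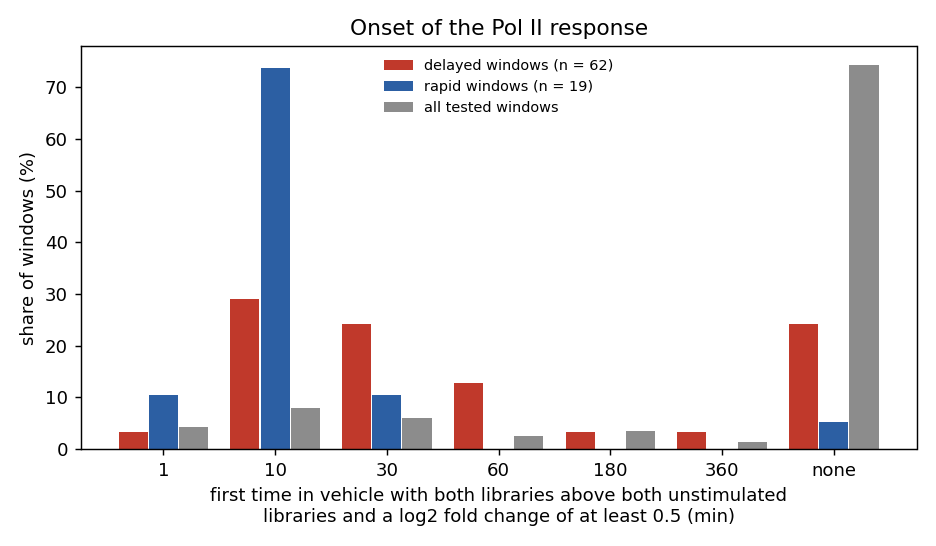
Share of windows in percent (y, from 0) by onset in vehicle (x, min), for the 62 delayed, 19 rapid and all 13908 tested windows. Delayed windows first meet the onset rule mostly at 10, 30 and 60 min (29%, 24.2% and 12.9%). The rule is first met at 10 min by 73.7% of rapid windows, which also rise more, and 74.3% of all windows have no onset.

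**Figure D4:**
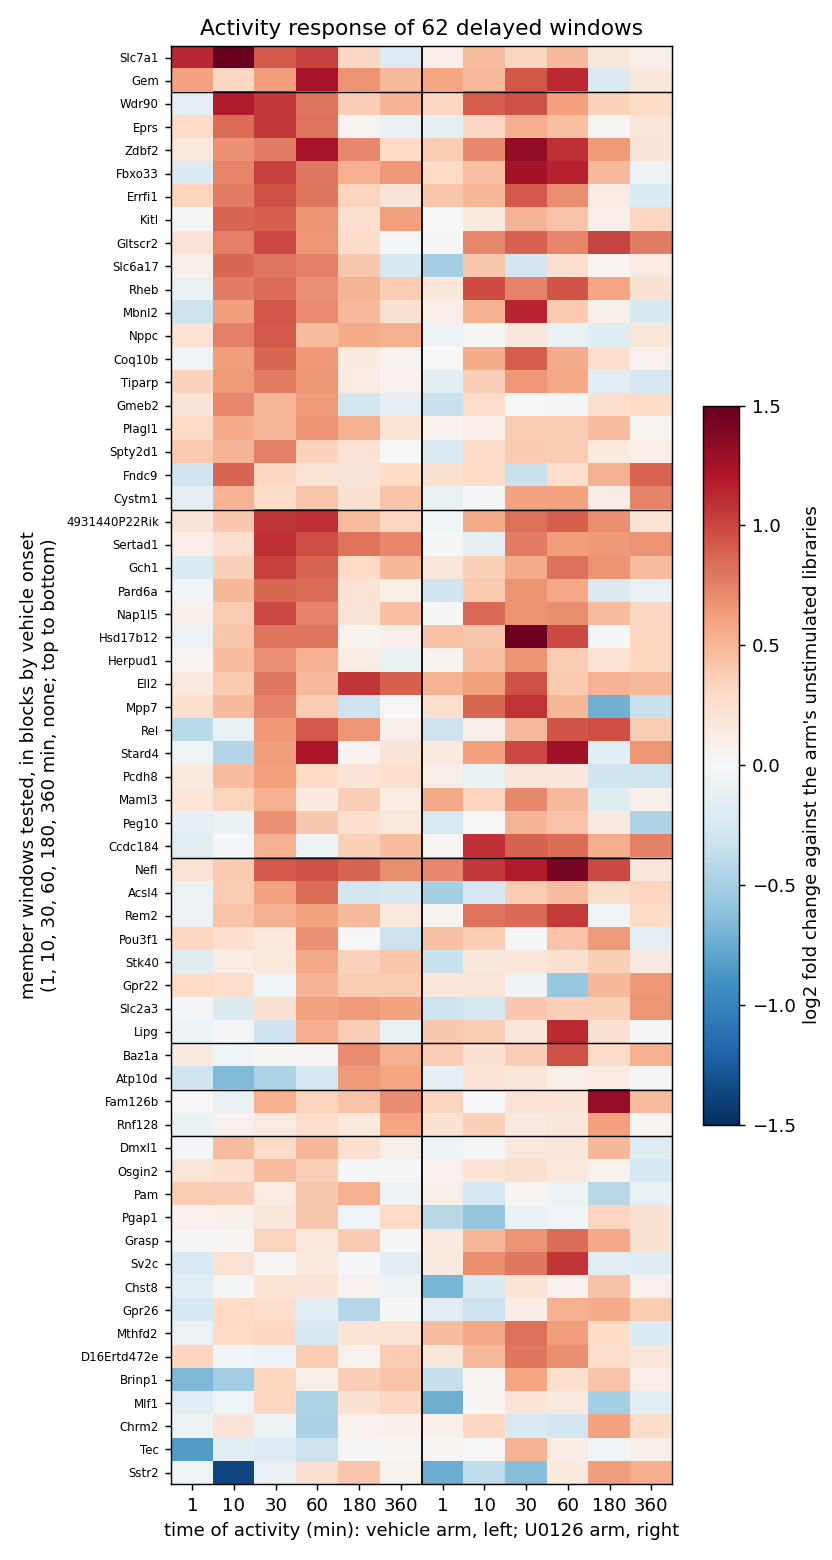
Log2 fold change (colour, red higher and blue lower) of each of the 62 tested members (rows, in blocks by vehicle onset) at 6 times in vehicle (left) and U0126 (right), each against the unstimulated libraries of its arm. Blocks of early onset are mostly red at 10, 30 and 60 min in both arms, and Ell2 has the largest value at 180 min in vehicle, 1.07.

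By role, intracellular signalling genes had 14 members, of which 9 were tested, 8 were positive on average in vehicle and 1 was called (Errfi1), with a median of 0.54. Besides Errfi1 they included Rheb (0.77), the polarity scaffold Pard6a (0.73), Gem (0.73), Mpp7, another polarity scaffold (0.54), and Rem2, an RGK GTPase like Gem (0.53). The kinase Stk40 (0.28) and the synaptic scaffold Grasp (0.17) were lower in the order, and the kinase Tec was at -0.23. Apart from Errfi1, none of these passed in the vehicle average. In the RGK pair the order was alike: Rem2 was at 0.43 at 10 min, 0.54 at 30 min and 0.61 at 60 min, where Gem was at 0.32, 0.63 and 1.23.

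Nuclear regulators had 12 members and 10 tested, of which 9 were positive and 0 called, with a median of 0.55. Sertad1 (0.77) led, followed by Tiparp (0.70), an ADP-ribosyltransferase that represses the aryl hydrocarbon receptor, the glucocorticoid element binding protein Gmeb2 (0.62), the imprinted zinc finger factor Plagl1 (0.58) and the elongation factor Ell2 (0.55). Tiparp was among the densest members, with 2.14 and 2.7 at rest, 3.6 and 4.12 at 10 min, 5.14 and 3.52 at 30 min and 4.59 and 3.37 at 60 min. All libraries of 10 to 60 min lay above both at rest, and the adjusted p of the average did not pass. The window of 4931440P22Rik, whose role is not annotated in the files, starts 968 bp from that of Tiparp, and the 2 are not independent: its average was 0.86, with 0.519 and 0.599 at rest and 1.36 and 1.32 at 30 min. Spty2d1, a histone chaperone, was at 0.54, the NF-kB subunit Rel at 0.48, with its highest value of 0.92 at 60 min, the POU factor Pou3f1 at 0.36, the Notch coactivator Maml3 at 0.34 and the chromatin remodelling subunit Baz1a at -0.01.

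Metabolic enzymes and lipid handling had 11 members and 9 tested, all 9 positive and 1 called (Eprs), with a median of 0.61. Gch1, the first enzyme of tetrahydrobiopterin synthesis, was at 0.75, the coenzyme Q protein Coq10b at 0.71, the fatty acid elongation enzyme Hsd17b12 at 0.67 and the acyl-CoA synthetase Acsl4 at 0.61. Stard4 (0.47), Pgap1, which remodels GPI anchors (0.21), the sulfotransferase Chst8 (0.13) and the mitochondrial folate enzyme Mthfd2 (0.12) followed. Eprs, Gch1 and Coq10b had their highest value at 30 min and Stard4, Hsd17b12 and Acsl4 at 60 min.

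The 6 members of protein turnover, ribosome and cytoskeleton were all tested and all positive, with 0 called and a median of 0.66. They were the ubiquitin ligase subunit Fbxo33 (0.85), the ribosome assembly factor Gltscr2 (0.80), the neurofilament light chain Nefl (0.76), the endoplasmic reticulum stress protein Herpud1 (0.56), the ubiquitin ligase Rnf128 (0.15) and the synaptic vesicle protein Sv2c (0.13). Fbxo33 was at 1.12 and 1.35 at rest, 2.18 and 2.14 at 10 min, 4.46 and 1.56 at 30 min and 2.54 and 2.01 at 60 min. The 30 min libraries of Fbxo33 and Nefl differ widely (2.33 and 0.853 for Nefl), with replicate 1 the higher, and without vehicle 30 min replicate 2 the Fbxo33 average of 1.09 was called (adjusted p 0.0156). Herpud1 was at 2.89 and 3.3 at rest, 4.2 and 4.47 at 10 min and 6.29 and 4.08 at 30 min, without overlap. Of the imprinted or RNA-linked genes, 4 of 5 were tested, all positive and 0 called: the imprinted genes Zdbf2 (0.90), Nap1l5 (0.70) and Peg10 (0.33) and the splicing regulator Mbnl2 (0.76). Zdbf2 was at 0.148 and 0.488 at rest, 0.555 and 0.554 at 10 min, 1.02 and 0.323 at 30 min and 1.22 and 0.622 at 60 min, and its 30 min libraries overlap those at rest.

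Transporters had 5 members and 4 tested, with 1 called (Slc7a1): the vesicular amino acid transporter Slc6a17 was at 0.80, the neuronal glucose transporter Slc2a3 at 0.21 and the phospholipid flippase Atp10d at -0.46. Peptides, ligands and secreted proteins had 12 members, of which only 4 were tested, all positive and 0 called. These were the KIT ligand Kitl (0.81), the natriuretic peptide Nppc (0.72), the peptide-amidating enzyme Pam (0.30) and the endothelial lipase Lipg (0.07). Receptors and adhesion had 11 members and 5 tested, with 3 positive, 0 called and the lowest median of the groups, 0.13. The activity-regulated protocadherin Pcdh8 was at 0.46, with a density of 3.38 and 3.2 at rest and 6.2 and 4.24 at 30 min. The orphan receptors Gpr22 (0.24) and Gpr26 (0.13) followed, and the muscarinic receptor Chrm2 (-0.12) and the somatostatin receptor Sstr2 (-0.41) were negative. Of Sstr2, 1 of the 10 min libraries was listed at 0 and the other was at 0.31, against 0.398 and 0.674 at rest, and at 60 min the values of 0.564 and 0.747 overlapped those at rest. Of the 18 members with another or no assigned role, 11 were tested and 9 were positive, with a median of 0.35, Wdr90 at the top and Mlf1 at the bottom (-0.07).

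The 32 members below the density limit had no test. They included genes known from stimulated neurons: the neuropeptides Adcyap1, Cartpt and Cort, the cyclooxygenase Ptgs2, the EGF receptor ligand Areg and the GTPase exchange factor Rasgrp1. Their mean density was 0.1547 for Adcyap1, 0.1755 for Cartpt, 0.2054 for Cort, 0.2591 for Ptgs2, 0.2268 for Areg and 0.2302 for Rasgrp1, against a median of 1.002 over the tested members. The cell cycle inhibitor Cdkn1a had a marked window at 0.179 and another window 2790 bp away at 1.381, with an average of 0.25 there (adjusted p 0.641). The members just inside the limit were Pou3f1 (0.3189) and Chrm2 (0.3276), and those just outside were Hcrtr2 (0.2734) and Tbc1d8b (0.2664). Without the filter, with all 94 members tested, 3 were called in the vehicle average (Slc7a1, Wdr90 and Eprs). Over all 94 members the median in vehicle was 0.28 at 30 min and 0.32 at 60 min, with 62 and 64 positive. Among the 62 tested it was 0.57 and 0.54, with 55 positive at each time. Most members below the limit were thus not positive at these times. The median over all 27815 windows was -0.18 and -0.15. The limit was set on a mean that includes the activity libraries.

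Split into 4 bands of 3477 windows by mean density, all tested windows had a median vehicle average of -0.17, -0.08, 0.05 and 0.23 from the sparsest to the densest band. The members had 0.10, 0.33, 0.61 and 0.71 in the same bands, with 7 of 12, 13 of 14, 16 of 17 and 19 of 19 positive. The mean density includes the activity libraries, so a window that is higher during activity is moved toward a denser band, and the order across bands is in part fixed by the split. Within each band the members' median was above that of all windows. The 20 tested windows set aside by name had a median of 0.59 and the 19 rapid windows 1.08.

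At 180 and 360 min, compared with the 6 h unstimulated libraries, the largest values were those of Ell2, Nefl, Sertad1 and Zdbf2 (1.07, 0.87, 0.81 and 0.72 at 180 min) and of Ell2, Sertad1, Fam126b and Nefl (0.90, 0.72, 0.71 and 0.70 at 360 min). Ell2, a component of the super elongation complex that releases paused Pol II, was at 0.651 and 0.328 in the 6 h unstimulated libraries, 1.59 and 0.909 at 180 min and 1.35 and 0.781 at 360 min. Both late groups lay above both unstimulated libraries, but the 2 libraries of each time differed widely and no value passed. For Nefl the 6 h unstimulated libraries were at 0.136 and 0.6, and without replicate 1 of that group its 360 min value was 0.01. Fam126b, a subunit of a phosphatidylinositol kinase complex, had its onset at 360 min.

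The second question was whether these promoters need MEK for their response. With U0126 present, the members' median against the unstimulated U0126 libraries at the same 6 times was 0.06, 0.35, 0.53, 0.47, 0.27 (the time with 1 library) and 0.18, in that order. Averaged over 10 to 60 min it was 0.43, against 0.03 for all tested windows, and 57 of 62 members were positive. The members called higher were 2, beside 0.302% of all windows: Rheb at 0.88 (SE 0.205, adjusted p 0.0443) and Wdr90 at 0.82 (SE 0.187, adjusted p 0.0379). Rheb was at 0.981 and 1.43 at rest in U0126, 2.76 and 2.24 at 10 min, 2.78 and 1.58 at 30 min and 2.59 and 2.46 at 60 min, without overlap, and its vehicle average was 0.77. Wdr90 was at 1.2 and 1.91 at rest in U0126 and at 2.95 and 2.99 at 10 min. These calls rest on few libraries. Neither was kept in 6 of the 8 fits with 1 library left out, the exceptions being those without U0126 30 min replicate 2 and without U0126 unstimulated 1 h replicate 2. The shares of all windows called in these fits are not given.

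**Figure D5:**
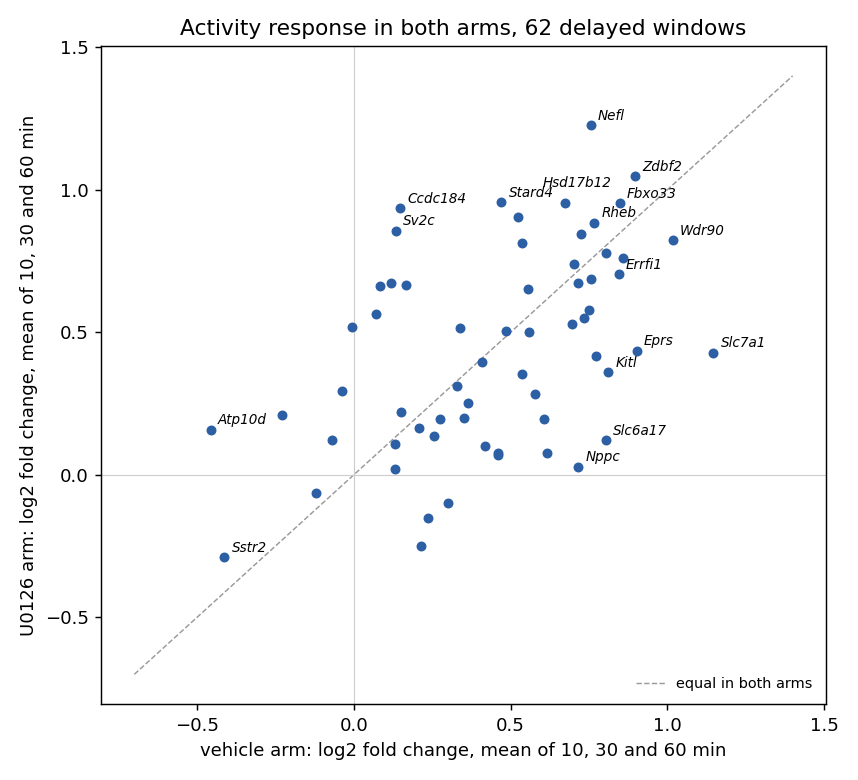
Log2 fold change averaged over 10, 30 and 60 min in vehicle (x) and in U0126 (y), each against its own unstimulated libraries, with 1 point for each of 62 tested members and a dashed line of equal values. Most points lie above 0 on both axes (52 of 62), Slc7a1, Slc6a17 and Nppc lie below the line, and Ccdc184, Sv2c and Nefl above it.

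The direct comparison of U0126 with vehicle, averaged over 10, 30 and 60 min in 12 libraries, called 0 of 62 members, beside 0.00719% of all windows, and 2 had an unadjusted p under 0.05, beside 3.04%. At single times 0 members were called: at 10 min 0.00719% of all windows were called, and in unstimulated neurons and at 1, 30, 60, 180 and 360 min 0%. The median effect was -0.06, against -0.01 for all windows, -0.16 for the 20 windows set aside by name and -0.30 for the 19 rapid windows. Of the rapid windows 0 were called on average, 7 had an unadjusted p under 0.05, all lower in U0126, and 1 was called lower at 10 min, the only window called at that time. The SE of a member was between 0.12 and 0.267, and the 95% interval of the effect lay within -1 and 1 for all 62 members and within -0.58 and 0.58 for 42. For the other 20 members the interval reached an effect of that size, which is not excluded at this precision. Lower values in U0126 at each of 10, 30 and 60 min were seen at 15 members (24.2%, against 14.7% of all windows) and higher values at each time at 3 (4.84%, against 12.2%).

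Ranked by that effect, the lowest were Hsd17b12 (-0.51), Lipg (-0.41), Kitl (-0.39), Gpr22 (-0.39), Maml3 (-0.39) and Fbxo33 (-0.36). Hsd17b12 was at 1.16 and 2.08 at 10 min in vehicle and at 0.571 and 1.17 in U0126, and its interval was -0.95 to -0.07 before adjustment, with an adjusted p of 1 in limma's test. It was also lower at rest, at 0.395 and 0.837 in U0126 against 1.32 and 0.962 in vehicle, so its rise within the U0126 arm was 0.95 and that in vehicle 0.67. Kitl was at 1.72 and 1.93 at 10 min in vehicle and at 0.826 and 1.41 in U0126, while the values at rest, 0.69 and 1.24 against 0.679 and 1.33, were close. The highest effects were those of Atp10d (0.38), the coiled-coil gene Ccdc184 (0.33), Sv2c (0.26) and Gem (0.20). Ccdc184 was at 2.45 and 2.22 at 10 min in U0126 and at 1.37 and 1.52 in vehicle, without overlap. Without vehicle 30 min replicate 1 the value of Sv2c was -0.04.

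Whether the activity response itself differed between arms was tested as an interaction, each arm against its own unstimulated 1 h libraries. It called 0 members (0% of all windows). The most negative values were those of Slc7a1 (-0.72, interval -1.42 to -0.02), Nppc (-0.69) and Slc6a17 (-0.68), and the most positive was that of Ccdc184 (0.79, interval 0.07 to 1.5); the adjusted p was 1 for all of these. For Slc7a1 the U0126 libraries of 10 to 60 min were between 0.962 and 1.63 and the vehicle libraries between 1.08 and 2.23, and among these groups the arms differed most at rest, where U0126 was 0.60 higher. The interval lay within -1 and 1 for 29 of 62 members, and for the others it reached a log2 difference of 1 or more. Grouped by vehicle onset, members with onset at 1 or 10 min had a median of 0.48 in the U0126 arm (20 of 20 positive), those with onset at 30 or 60 min 0.55 (22 of 23 positive) and those with none 0.12 (11 of 15 positive), in libraries that the grouping did not use. Agreement of the arms was not particular to the members: the 2 arm averages correlated with r 0.474 over the members and 0.469 over all tested windows. By the same onset rule in the U0126 arm, 37 of the 47 members with an onset in vehicle had one, at the same time for 13, earlier for 11 and later for 13. No onset in the U0126 arm was found for 16 of the 62 members (25.8%) and for 70.8% of all windows, and the onsets at 180 min (7 members, 8.61% of all windows) rest on 1 library. An onset in vehicle only was found for 10 members: Slc7a1, Slc6a17, Nppc, Gmeb2, Acsl4, Plagl1, Spty2d1, Pcdh8, Stk40 and Atp10d. The reverse, an onset in U0126 only, was found for 9: Brinp1, Chrm2, D16Ertd472e, Gpr26, Grasp, Mthfd2, Sstr2, Sv2c and Tec. Of these, Chrm2, Gpr26 and Sstr2 had it at 180 min, the time with 1 library.

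The histone modification H3K27ac, known from active enhancers, was deposited for 940 regions in 16 libraries, and 287 regions had 1 of 79 members as their nearest gene, at a median distance of 46910 bp. At 60 min in vehicle 0 of the 287 were called (0% of all regions), and the median was 0.11, against 0.07 for all regions. For U0126 against vehicle, averaged over 10, 30 and 60 min, 0 were called (0%). The 3 with the lowest unadjusted p at 60 min were 1 region nearest to Grasp, 19608 bp away, at 1.33 (SE 0.365, adjusted p 0.826), and 2 nearest to Hsd17b12, 85324 and 88519 bp away, at 1.49 and 0.98 (adjusted p 0.839 for each). The 2 Hsd17b12 regions are neighbours, the first ending at 94084370 and the second starting at 94084520 on chromosome 2, and are not independent. In U0126 these 3 regions were at 1.25, 1.38 and 1.15 (adjusted p 0.521, 0.666 and 0.521), none called.

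Of 30 genes that carry signals to such promoters (CREB, its co-activators, CaM kinases, MEF2, SRF, ERK and their kinases), 27 were tested and 2 were higher in the vehicle average, Creb1 (0.92, adjusted p 0.00811) and Mef2d (0.96, adjusted p 0.0478), with a median of 0.12, and 0 were called for U0126. The windows whose log2 values were most like those of Slc7a1 over the 16 group means were 2 windows of Cox4i1 (r 0.911 and 0.892), Lyrm1 (r 0.888) and Emc8-1190005i06rik (r 0.87). All windows share the same libraries and unstimulated groups, and the likeness is a description.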

How the data were processed

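Chromatin immunoprecipitation of RNA polymerase II and of H3K27ac with sequencing was analysed from the authors' processed tables. Per the file headers, the Pol II values are a normalized density (signal) per 600 bp window, scaled by the authors with control start sites without activity regulation. The deposited H3K27ac table gives normalized signal for each enhancer region, in 1 sheet for each replicate number, on a scale that is not stated. The distances to the nearest gene are other deposited values, in bp. The submitters' processing notes name Bowtie2, SAMtools, bedtools and mm9, without versions. Input libraries were not analysed here.

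Values were taken as log2(density + 0.1456), where 0.1456 is the 25th percentile of positive values, so fold changes of low windows are understated. Of 27815 windows, the 13908 with a mean density of at least 0.2818 (the upper 50 percent) were kept, and the median of each library over them was subtracted. A model with 1 mean per group over all 31 libraries was fitted with limma 3.58.1 in R 4.3.3 (trended variance, two-sided, 15 residual and 19.05 prior degrees of freedom), with Benjamini-Hochberg adjustment over all tested windows and a threshold of 0.05. U0126 at 180 min has 1 library, whose spread was taken from the other groups. Times of 1 to 60 min were compared with the unstimulated 1 h libraries of the same arm and later times with those of 6 h. H3K27ac was fitted in the same way over 940 regions (pseudocount 0.6282, 8 residual and 4.174 prior degrees of freedom); 10 regions named differently in the sheets were left out of the members' regions. The code was tested on simulated data. Figures were drawn with matplotlib 3.10.9.

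The members, gene lists, role groups and tests were chosen with earlier results of these data known. The members named are those with the 14 largest and 5 smallest vehicle averages, every called member, the 6 lowest and 4 highest U0126 effects, the 4 largest values at 180 and at 360 min, the members next to the density limit and, for each role group, up to 3 by density; others are named to complete a role group or an onset class and were chosen after their values were seen. Alternatives were the pseudocount (doubled or halved), no filter, 1 window per symbol, no centring, quantile normalization, a block on the replicate number and leaving out each library. Groups shared the same replicate numbers, but the labels do not say what libraries of 1 number share, so the numbers were not taken to pair the libraries. Counts with a block on the number, which are higher for most comparisons with calls, are given in the closing section.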

Additional observations from a re-analysis of the deposited data

How the results depend on the processing

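Of 47 members' values followed through the alternatives, 44 kept their sign in all of them. Chrm2 and Mlf1, both near 0 in the vehicle average, turned to 0.0875 and 0.139 without the density filter and to 0.0972 and 0.0849 with quantile normalization, and leaving out 1 library gave -0.58 to 0.33 and -0.29 to 0.15. The U0126 effect of Sv2c ran from -0.0402 to 0.56. Without the filter 0 members were called at 10 min and 0 in the U0126 average, and with 1 window per symbol 0 at 60 min. Quantile normalization left 1 call in the vehicle average (Slc7a1), 1 at 10 min, 0 at 30 min, 0 at 60 min, 0 in the U0126 average and 0 for 60 against 10 min, with a median of 0.45 at 30 min. The average of 10 and 60 min only, an alternative chosen after seeing the data, gave 2 calls. The cause was not tested.

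A block on the replicate number took account of differences shared by libraries of the same number. The r of these differences between groups was -0.06 to 0.51 (median 0.249), over 0.1 in 94 of 105 pairs of groups. With the block, 18 members were called higher in the vehicle average. The share of all windows called there rose as well, from 1.15% to 4.1%. Members called higher were 4 at 10 min, 18 at 30 min, 8 at 60 min and 12 in the U0126 average, and 1 was lower at 10 min. The shares of all windows for these other counts are not given, so they are not results about the members alone. The members' H3K27ac regions had 9 calls, counted over all comparisons together, so 1 region can count more than once. The numbers do not pair the libraries in the labels.

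Leaving out 1 library at a time gave 0 to 13 calls in the vehicle average, 0 to 2 at 10 min, 0 to 13 at 30 min, 0 to 0 at 60 min, 0 to 1 lower at 10 min, 0 to 4 in the U0126 average and 0 to 1 for 60 against 10 min, where the 1 is Sstr2, not Stard4. Leaving out a vehicle 30 min library, added after seeing the data, gave 31 and 45 onsets at or before 30 min against 35. The 1 min median of the members ran from -0.13 to 0.13, the 10 min median from 0.24 to 0.40 and the 30 min median from 0.38 to 0.75. For the U0126 effect and the interaction, averaged over 10 to 60 min, 0 members were called under every alternative and with each library left out. The shares of all windows called with 1 library left out are not given, so the counts of calls in those fits are not results about the members alone. Without read counts, the part of depth in the precision of a window is unknown.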
